A study of Mus musculus with 4 samples.

Results

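The brush border is the carpet of microvilli on the luminal face of absorptive epithelial cells. Its membrane carries hydrolases that finish the digestion of sugars, peptides and phosphate esters, and actin bundles tied to the membrane hold each microvillus upright. The set described here has 9 genes, chosen by name from 22180 genes measured on all 4 arrays of the series. Of these, 7 encode enzymes: Sis, Lct and Treh split disaccharides, Alpi is an alkaline phosphatase, and Dpep1, Anpep and Dpp4 are peptidases. The other two are not enzymes, and the set is therefore called brush border genes below: Vil1 encodes villin, which bundles actin in microvilli, and Tmigd1 encodes an immunoglobulin-domain membrane protein of epithelial cells. Most of these enzymes are best known from the small intestine, where they are far more abundant than in the colon. Lactase declines after weaning in most mammals.

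RNA came from colon tumours and normal colon of C57BL/6 mice aged 3 months. There was 1 array for each tissue of each Dmt1 genotype, 4 in all, and no group was repeated. F/F stands for the genotype CDX2; Dmt1F/F/ApcF/+ and wild-type (WT) for CDX2; Dmt1+/+/ApcF/+, so every animal carried ApcF/+ and the label CDX2, whose meaning is not spelled out, and no array lacks them. Dmt1 is the iron importer with the gene symbol Slc11a2, Apc is the tumour suppressor that restrains Wnt signalling, and an F allele is, by convention, flanked by loxP sites. In the design text n is 4 for F/F and 7 for wild-type, and no source used here says how these animals were combined on the arrays. A difference between 2 arrays therefore has no replicate error.

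Each value is a log2 signal of 1 probe set, normalised by the authors over the 4 arrays, and each of the 9 genes had exactly 1 probe set. A gene was tested if at least 1 array reached log2 4.67, the median over genes, which left 12060 genes and 7 of the 9 brush border genes. Slc11a2, the targeted gene, had a log2 signal of 6.19 in F/F tumour, 6.13 in F/F normal colon, 6.64 in wild-type tumour and 6.51 in wild-type normal colon. Its fitted F/F minus wild-type difference was -0.41 (SE 0.12, limma adjusted p = 0.564), and whether its probes lie in the floxed part was not looked at. Apc had 8.53 in F/F tumour, 8.70 in F/F normal colon, 8.62 in wild-type tumour and 8.53 in wild-type normal colon. Pearson correlations across probe sets were 0.965 between F/F tumour and F/F normal colon, 0.963 between wild-type tumour and normal colon, 0.986 between the tumours and 0.982 between the normal arrays.

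Brush border genes share regulators: Cdx2, Hnf4a and GATA factors are known to act on intestinal enzyme promoters, and the Sis and Lct promoters are classical Cdx2 targets. The 250 bases before an annotated start of each gene were therefore read from RefSeq's annotation of mouse build GRCm38.p6, in which all 9 genes were found (10 windows, since Tmigd1 has 2). Both strands were searched for letters known from the binding sites of these factors. For CDX factors the letters were TTTATG. The HNF4 search used AAGTCCA, which is part of its longer site. GATA factors were searched as AGATAA, and the TATA box of the core promoter as TATAAA. A further planned motif, GTTAAT for HNF1 factors, was not searched. The windows of Sis, Alpi and Tmigd1 (its downstream start) are shown because these genes had the lowest tumour levels relative to normal colon together with Dpep1, and that of Lct because it is the classical counterpart with a signal below the tested level. Capitals mark the motif matches.
Sis (chr3:72967864-72968113, minus strand): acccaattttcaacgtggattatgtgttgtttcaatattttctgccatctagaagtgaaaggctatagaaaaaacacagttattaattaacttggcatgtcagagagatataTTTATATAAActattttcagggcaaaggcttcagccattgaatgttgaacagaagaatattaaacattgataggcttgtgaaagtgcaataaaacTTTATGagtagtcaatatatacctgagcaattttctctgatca
Alpi (chr1:87101607-87101856, minus strand): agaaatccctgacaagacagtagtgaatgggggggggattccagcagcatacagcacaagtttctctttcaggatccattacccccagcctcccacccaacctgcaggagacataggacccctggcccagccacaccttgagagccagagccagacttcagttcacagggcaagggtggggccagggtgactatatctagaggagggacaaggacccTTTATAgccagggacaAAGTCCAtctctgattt
Tmigd1 (chr11:76901909-76902158, plus strand): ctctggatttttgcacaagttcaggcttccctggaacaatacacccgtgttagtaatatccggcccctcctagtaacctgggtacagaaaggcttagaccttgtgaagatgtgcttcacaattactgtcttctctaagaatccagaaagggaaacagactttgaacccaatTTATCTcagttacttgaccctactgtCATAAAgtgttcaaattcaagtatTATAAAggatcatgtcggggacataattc
Lct (chr1:128328319-128328568, minus strand): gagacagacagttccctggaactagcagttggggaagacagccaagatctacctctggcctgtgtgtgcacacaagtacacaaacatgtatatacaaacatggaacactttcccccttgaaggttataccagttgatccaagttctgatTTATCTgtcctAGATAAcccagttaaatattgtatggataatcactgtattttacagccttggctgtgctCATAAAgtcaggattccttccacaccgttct
TTTATG began 43 bases before the start in Sis and, on the opposite strand, 31 bases before it in Lct and 53 in Tmigd1. This motif stood in 3 of the 10 windows, against 10.8% of 32851 promoter windows of the same length. G and C made up 31.6% of the bases in the Sis window, 42.8% in Lct and 41.2% in that of Tmigd1. The median over all windows was 52.4%, and the shares over all windows given here were not matched for base composition. Sis alone held 2 overlapping TATAAA matches, 1 per strand. AAGTCCA lay 17 bases before the start of Alpi and also in the Treh window (3.36% of all windows). AGATAA was found in 3 windows, those of Lct, Dpp4 and Tmigd1 (9.99% of all windows), and TATAAA in 4, those of Sis, Alpi, Dpp4 and Tmigd1 (12.4%). The windows of Dpep1, Anpep and Vil1 and the upstream window of Tmigd1 held none of these letters. The start used for Dpp4 lies inside the annotated span of the gene, and so does its AGATAA match. A match is a string of letters and was not tested as a binding site.

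Tumours and normal colon were compared to ask how the brush border programme differs between them. Alpi, Tmigd1, Dpep1 and Vil1 fell in tumours over both genotypes, and no brush border gene rose. Alpi and Tmigd1 were lower by roughly an order of magnitude in each genotype, Dpep1 by far more in wild-type than in F/F mice, and Vil1 by a modest amount. Sis was lower in both tumours but missed the threshold. Anpep and Dpp4 missed it too, with differences that were unequal between the genotypes. Treh and Lct stayed below the tested level on all 4 arrays.

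Alpi, the intestinal alkaline phosphatase that strips phosphate from bacterial lipopolysaccharide and other substrates, had a log2 signal of 4.69 in F/F tumour and 8.68 in F/F normal colon. In wild-type mice it had 3.81 in the tumour and 7.31 in normal colon. Both tumours lay near or below the tested level and both normal pieces well above it. The ratio of normal colon to tumour was 16.0-fold in F/F and 11.3-fold in wild-type mice, and the fitted tumour minus normal difference was -3.75 (SE 0.17, limma adjusted p = 0.00381, 2 against 2 arrays). Since the wild-type tumour lies below the tested level, that ratio may understate the change. Alpi belongs to a family of near-identical phosphatases whose transcripts could share signal, and its relatives Akp3 and Alppl2 were below the tested level on all 4 arrays.

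Tmigd1, which is known to restrain epithelial growth and to support the brush border in mice, had a log2 signal of 6.17 in F/F tumour and 9.40 in F/F normal colon. Its wild-type values were 4.20 in the tumour and 8.40 in normal colon. The tumours did not overlap the normal pieces, and the F/F value was above the wild-type value in each tissue. Normal colon exceeded tumour 9.38-fold in F/F and 18.4-fold in wild-type mice, with a fitted difference of -3.72 (SE 0.26, limma adjusted p = 0.00726). The wild-type tumour value lies below the tested level, so the wild-type ratio is uncertain in size.

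Dpep1, a membrane dipeptidase that also processes leukotriene D4, had a log2 signal of 8.01 in F/F tumour and 9.67 in F/F normal colon. In wild-type mice its values were 5.55 in the tumour and 9.65 in normal colon. Normal colon thus had about the same level in both genotypes, while the tumours stood far apart. The ratio of normal colon to tumour was 3.17-fold in F/F and 17.1-fold in wild-type mice. The fitted difference of -2.88 (SE 0.59, limma adjusted p = 0.0407) averages these unequal changes. The tumour call was lost without a trend in the variance prior (adjusted p = 0.0592) and without the genotype term (adjusted p = 0.0605).

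Vil1, the villin gene, had a log2 signal of 9.91 in F/F tumour and 10.43 in F/F normal colon, and of 9.41 in wild-type tumour and 10.18 in wild-type normal colon. Its differences were the narrowest among the genes that fell: normal colon exceeded tumour 1.43-fold in F/F and 1.71-fold in wild-type mice. The fitted difference was -0.65 (SE 0.12, limma adjusted p = 0.0318), and it too was lost without the trend (adjusted p = 0.0597) and without the genotype term (adjusted p = 0.0808).

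Sis, sucrase-isomaltase, the disaccharidase of sucrose and starch digestion, had a log2 signal of 2.94 in F/F tumour and 6.10 in F/F normal colon, against 2.87 in wild-type tumour and 4.00 in wild-type normal colon. It reached the tested level on 1 array, F/F normal colon, so it entered the test through that array alone. Its fitted difference was -2.15 (SE 0.55, limma adjusted p = 0.0625), and over 8 settings its adjusted p ranged from 0.0150 to 0.0864, passing in 1, with each array centred on its median. The wild-type difference of -1.14 lies wholly below the tested level and is uncertain in size.

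Anpep, aminopeptidase N, which trims peptides at the brush border and is also made by myeloid cells, fibroblasts and endothelium, had a log2 signal of 6.19 in F/F tumour and 6.27 in F/F normal colon. The wild-type values were 6.31 in the tumour and 5.53 in normal colon, so wild-type normal colon was the one low array. Its fitted difference was 0.35 (SE 0.24, limma adjusted p = 0.344). Dpp4, the dipeptidyl peptidase that inactivates incretin hormones and is known on T cells as CD26, had a log2 signal of 7.79 in F/F tumour, 7.72 in F/F normal colon, 7.07 in wild-type tumour and 7.60 in wild-type normal colon. Wild-type tumour was its low array, and the fitted difference was -0.23 (SE 0.18, limma adjusted p = 0.398).

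Treh, trehalase, which splits the sugar trehalose, had a log2 signal of 3.91 in F/F tumour, 3.92 in F/F normal colon, 3.91 in wild-type tumour and 4.08 in wild-type normal colon. Lct, lactase, had 3.53 in F/F tumour, 3.52 in F/F normal colon, 3.78 in wild-type tumour and 3.49 in wild-type normal colon. At this level neither can be told from background, and no direction is given for them. With all 22180 genes in the fit, their tumour minus normal differences were -0.09 (SE 0.16, limma adjusted p = 0.785) for Treh and 0.15 (SE 0.17, limma adjusted p = 0.633) for Lct.

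**Figure D1:**
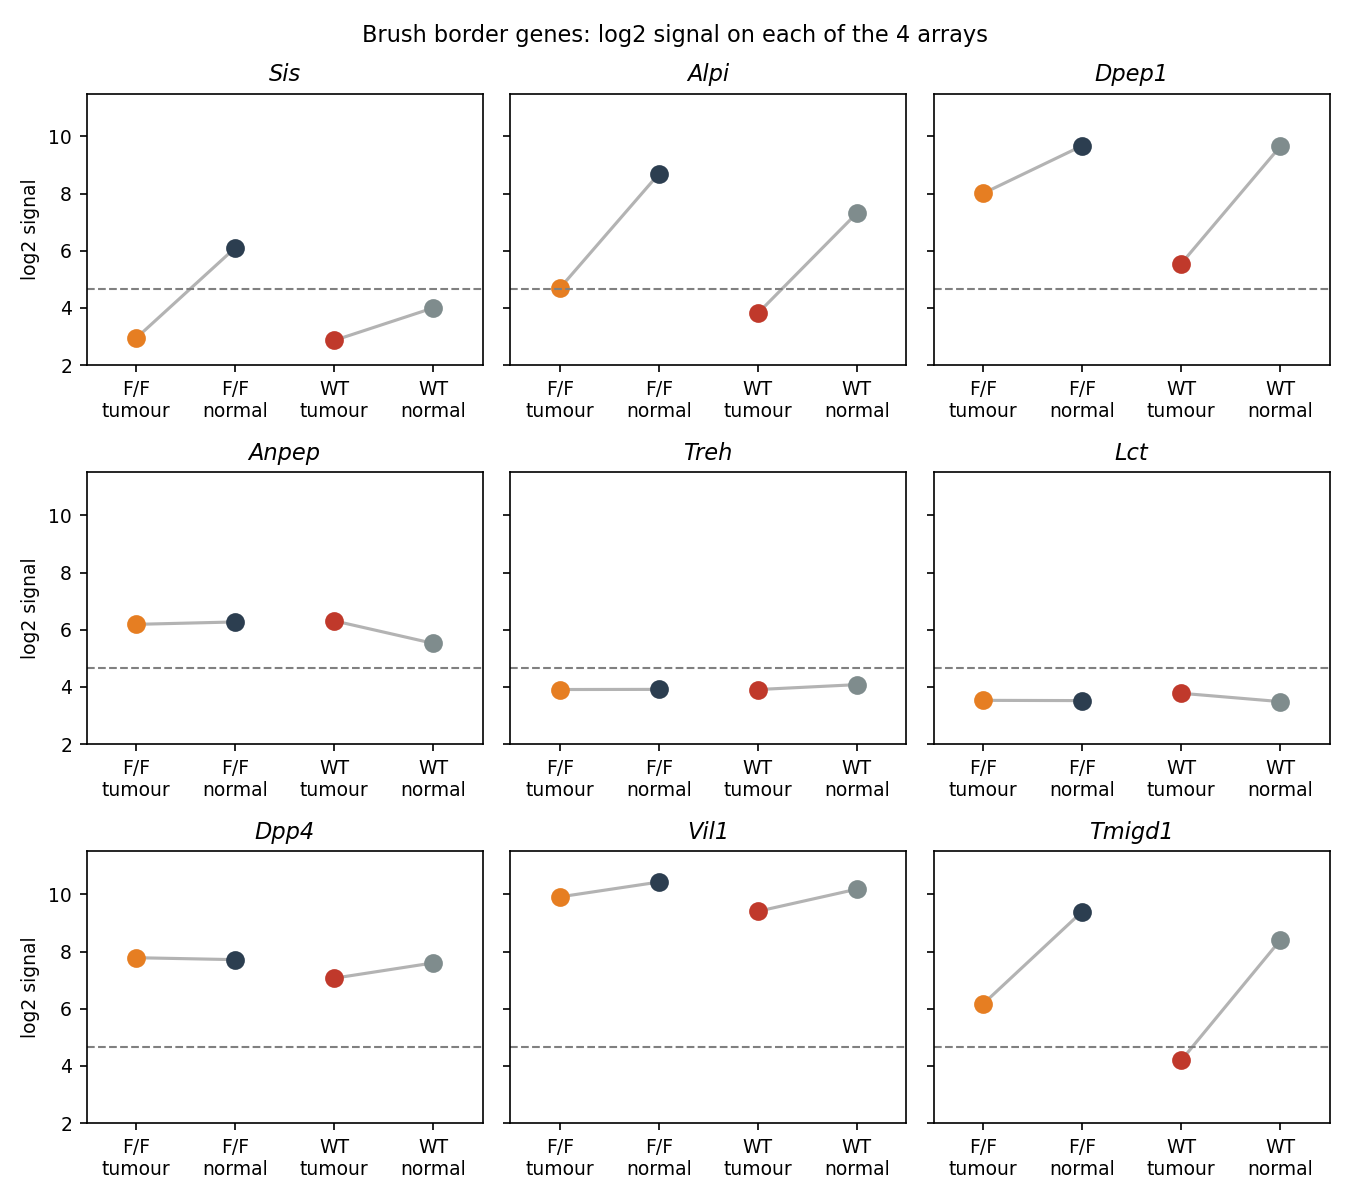
Log2 signal (vertical axes) of each of the 9 brush border genes on the 4 arrays (horizontal axes: F/F tumour, F/F normal colon, wild-type tumour, wild-type normal colon); each point is 1 array, grey lines join the tissues of a genotype and the dashed line is the tested level of log2 4.67. Sis, Alpi, Dpep1, Tmigd1 and Vil1 have both tumours below both normal pieces, and Treh and Lct lie below the dashed line throughout.

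In all, 4 brush border genes fell and 0 rose at a limma adjusted p of 0.05. Among the 12060 genes tested 8.23% fell and 11% rose, and 22.7% were higher in tumour at an unadjusted p of 0.05, with 0 brush border genes among them. By the 2-fold count, which needs no test, 4 genes were lower in F/F tumour (Sis, Alpi, Dpep1 and Tmigd1; 3.81% of all tested genes) and the same 4 in wild-type tumour (5.31%). Sis entered these counts through the F/F normal array alone, and with a filter on the mean over arrays, which it does not pass, both counts were 3. None was higher by as much in F/F tumour (5.98% of tested genes) or in wild-type tumour (6.56%). Both tumours lay below both normal pieces for these 4 and for Vil1, as they did for 29.2% of tested genes. Over all 9 genes the median tumour minus normal difference was -0.52 in F/F and -0.78 in wild-type mice, against -0.03 and 0.00 over the 22180 genes without a filter. Treh and Lct are among the 9, and both medians are the values of Vil1. Over the 7 tested genes, Sis included, the medians were -1.66 in F/F and -1.14 in wild-type mice, against 0.04 and 0.08 over all tested genes. The genotype order of the medians thus depends on the set. The RNA is from whole tissue pieces, so fewer absorptive cells and less RNA per cell cannot be told apart.

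**Figure D2:**
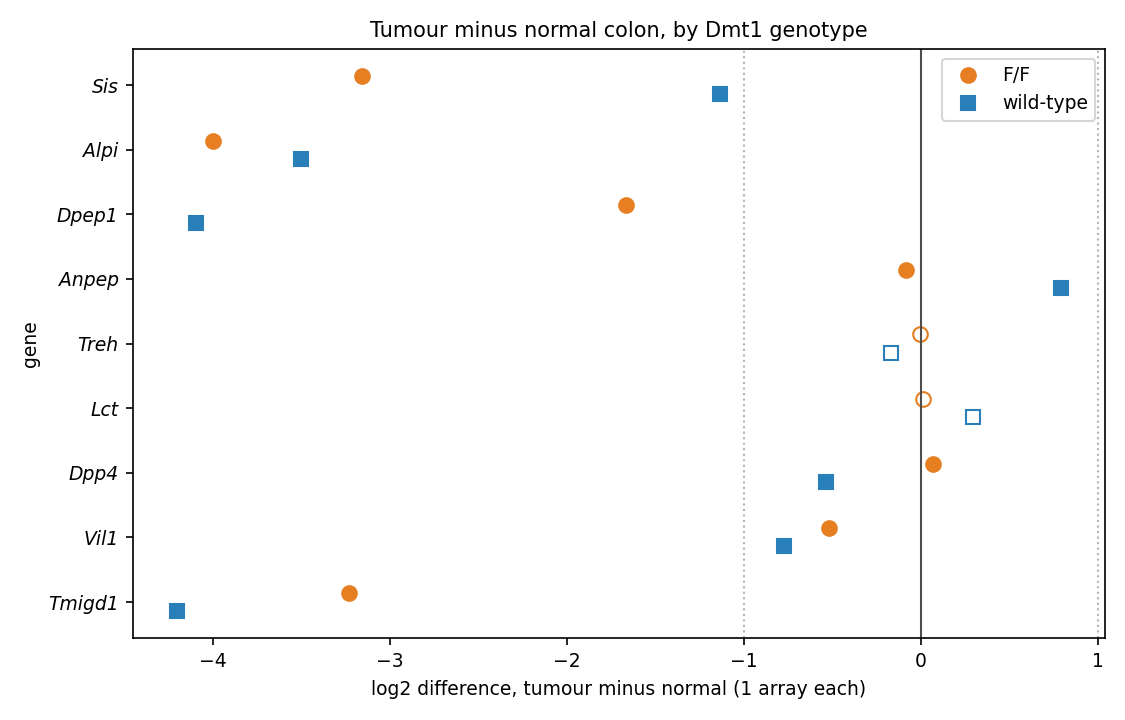
Log2 difference of tumour minus normal colon (horizontal axis) for each brush border gene (vertical axis), with circles for F/F and squares for wild-type mice, 1 array per tissue; open symbols are genes below the tested level and dotted lines mark a 2-fold difference. Alpi and Tmigd1 lie beyond -3 in both genotypes, Dpep1 is at -1.66 in F/F and -4.10 in wild-type mice, and Sis is at -3.16 in F/F and -1.14 in wild-type mice.

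Among other hydrolases of the brush border 4 of 10 fell. Of 20 listed, 18 were measured and 10 tested, and 0 rose. Those that fell were Mep1b (-2.19, SE 0.26) and Mep1a (-2.11, SE 0.25), the subunits of the metalloprotease meprin, Enpep (-1.72, SE 0.15), the aminopeptidase of angiotensin, and Xpnpep2 (-1.30, SE 0.24), an aminopeptidase specific for bonds to proline. Their limma adjusted p-values ranged from 0.0109 for Enpep to 0.0325 for Xpnpep2, which did not pass without the genotype term (adjusted p = 0.142). Mgam, the maltase that works beside sucrase-isomaltase and was picked out after its values were seen, differed by -0.25 (SE 0.11, limma adjusted p = 0.181).

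Of 18 tested genes of the microvillus scaffold, 10 fell and 0 rose. Cdhr2, a cadherin that links microvilli at their tips, fell by 1.62 on the log2 scale (SE 0.18), its partner Anks4b by 1.33 (SE 0.12), the membrane scaffold Slc9a3r1 by 1.22 (SE 0.12) and the actin bundler Pls1 by 0.99 (SE 0.11). Limma adjusted p-values of these ranged from 0.0109 to 0.0163, and Slc9a3r1 did not pass without the genotype term (adjusted p = 0.0677). Among apical nutrient transporters 4 of 10 fell and 0 rose, led by the sulfate carrier Slc13a1 at -4.31 (SE 0.17, limma adjusted p = 0.00349) and the amino acid carrier subunit Slc3a1 at -3.32 (SE 0.26, limma adjusted p = 0.00888). Slc5a8, a carrier of short-chain fatty acids, differed by -1.08 (SE 0.29) and Slc7a9, the partner of Slc3a1, by -0.77 (SE 0.24), with limma adjusted p-values of 0.0678 and 0.0896.

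Of 17 tested transcription factors of the enterocyte, 7 fell and 1 rose. Isx, an intestinal homeobox repressor of carotenoid uptake, fell by 3.66 (SE 0.12, limma adjusted p = 0.00349), Cdx2 by 2.33 (SE 0.16, limma adjusted p = 0.00715) and Ppara, a regulator of fatty acid use, by 1.75 (SE 0.29, limma adjusted p = 0.0287). Gata5 rose by 2.40 (SE 0.18, limma adjusted p = 0.00834). Its normal colon values, 3.65 in F/F and 4.04 in wild-type mice, lie below the tested level, so the size of that rise is uncertain. Of the factors whose motifs were searched, Cdx2 had a log2 signal of 6.61 in F/F tumour, 8.70 in F/F normal colon, 5.22 in wild-type tumour and 7.78 in wild-type normal colon. This order was shared by 79.5% of the 992 genes that fell in tumour, among them Alpi, Dpep1, Vil1 and Tmigd1. Cdx1 fell by 0.94 (SE 0.12, limma adjusted p = 0.0193). Hnf4g fell by 1.34 (SE 0.12, limma adjusted p = 0.0109) and Hnf4a by 0.62 (SE 0.10, limma adjusted p = 0.0285), while Gata4 (-0.02, SE 0.23) and Gata6 (-0.09, SE 0.12) did not pass.

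Markers carried by all epithelial cells differed less. Of 12 tested, 1 fell, Tspan8 by 0.81 (SE 0.13, limma adjusted p = 0.0280), and 0 rose, with a median fitted difference of -0.17, against 0.07 over all tested genes. Their summed signal on the linear scale was 12225 in F/F tumour and 13718 in F/F normal colon, and 11692 in wild-type tumour and 12840 in wild-type normal colon. Markers of mature absorptive colonocytes were lower: 6 of 13 fell and 0 rose, with Fabp2, a fatty acid binding protein, at -4.15 (SE 0.38) and Guca2a, the guanylin precursor, at -1.68 (SE 0.29). Guca2a did not pass without the genotype term (adjusted p = 0.0535). Their summed signal was 16436 in F/F tumour and 23046 in F/F normal colon, and 9117 in wild-type tumour and 21544 in wild-type normal colon.

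**Figure D3:**
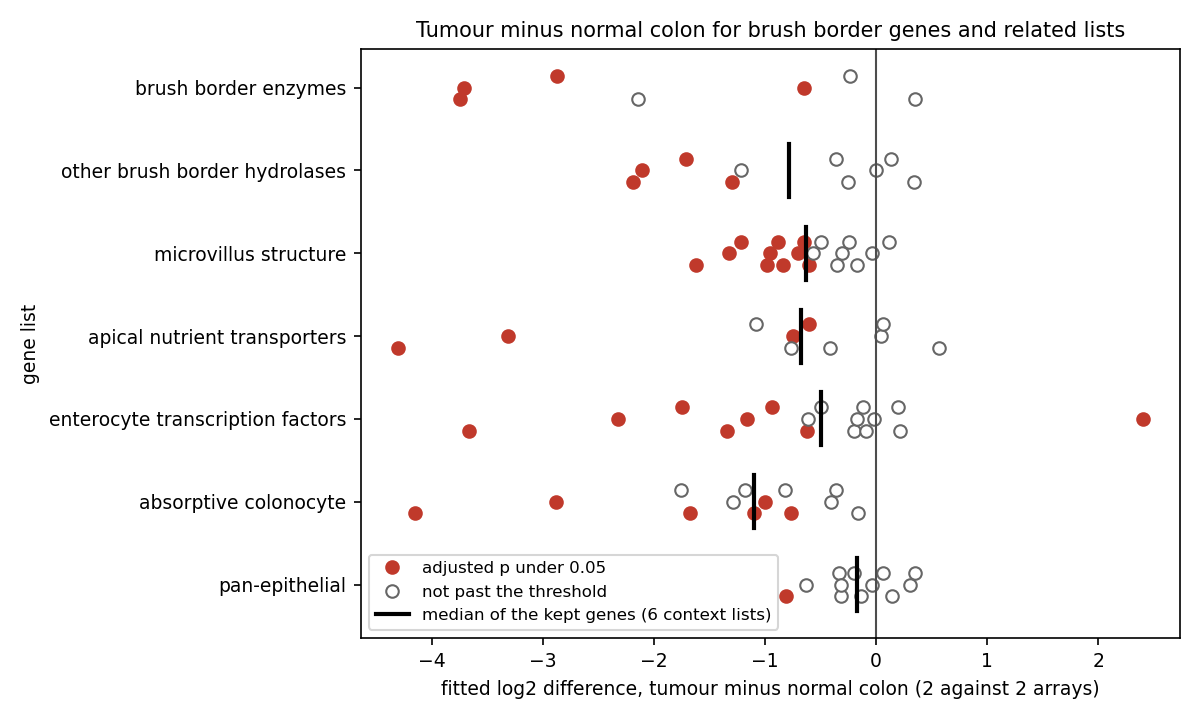
Fitted log2 difference of tumour minus normal colon over both genotypes (horizontal axis) for the tested genes of 7 lists (vertical axis); each point is 1 gene, filled where the limma adjusted p is under 0.05, and a black bar is the median of a context list. Every list but the pan-epithelial one reaches below -1, and the lowest pan-epithelial gene, Tspan8, is at -0.81.

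Genes of position along the gut separated the tissues as well. The proximal list had a summed signal of 318 in F/F tumour and 1872 in F/F normal colon, while the wild-type tumour had 346 and its normal colon 750, with 6 of 8 tested genes lower by the test and 1, Onecut2, higher. The distal list ran the other way, at 803 in F/F tumour and 193 in F/F normal colon, with 857 in the wild-type tumour and 398 in its normal colon, and 3 of 6 tested genes were higher by the test. Where each piece was taken is not labelled, so position and tumour cannot be told apart for the genes that fell. Against the wild-type normal array in place of the F/F normal array, a baseline chosen after seeing the data, F/F tumour was lower 2-fold or more in 4 brush border genes (Sis, Alpi, Dpep1 and Tmigd1; 2.1% of all tested genes). The difference from that array was -2.63 for Alpi, -2.23 for Tmigd1, -1.64 for Dpep1 and -1.06 for Sis. Both Sis values compared here, 2.94 in F/F tumour and 4.00 in wild-type normal colon, lie below the tested level. Sis was admitted through the F/F normal array, which this comparison does not use, so its place in the count is not read as a result.

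Other cell types differed between the pieces too. Myeloid markers, of which 5 of 10 rose, had a summed signal of 971 in F/F tumour and 488 in F/F normal colon, and of 1394 in wild-type tumour and 713 in wild-type normal colon. Fibroblast markers rose in 6 of 8 cases and 1, Dpt, fell, with sums of 2970 in F/F tumour and 1671 in F/F normal colon, and of 3611 in wild-type tumour and 2149 in wild-type normal colon. Both of these cell types make Anpep, and their part in its values was not tested. T and NK cell markers, which bear on Dpp4, had sums of 329 in F/F tumour and 593 in F/F normal colon, and of 281 in wild-type tumour and 469 in wild-type normal colon, with 4 of 10 lower by the test and 1 higher. All 6 markers of the kidney tubule, another site of Dpep1, were below the tested level on every array. B cell markers stood high on 1 array, with sums of 663 in F/F tumour and 128 in F/F normal colon, and of 166 in wild-type tumour and 201 in wild-type normal colon. None of the 6 passed the test over both genotypes, and 5 were higher by 2-fold or more in F/F than in wild-type tumour, the comparison in which Dpep1 and Tmigd1 differed. Of 6 Paneth cell markers 4 rose, Lyz1, the Paneth lysozyme, by 4.74 (SE 0.23, limma adjusted p = 0.00398), with sums of 3790 in F/F tumour and 743 in F/F normal colon, and of 5541 in wild-type tumour and 1557 in wild-type normal colon. Smooth muscle sums were 3495 in F/F tumour, 4808 in F/F normal colon, 2253 in wild-type tumour and 7739 in wild-type normal colon, and the part of all these cells in the brush border values was not tested.

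The Dmt1 genotypes were compared within each tissue to ask how they differ at the brush border. In tumours, Dpep1 was higher in F/F by 2.46 on the log2 scale (5.49-fold) and Tmigd1 by 1.97 (3.93-fold). The wild-type tumour value of Tmigd1, 4.20, lies below the tested level, so the size of its difference is uncertain. In normal colon, Sis was higher in F/F by 2.10 (4.29-fold), Alpi by 1.37 (2.59-fold) and Tmigd1 by 1.0 (2.0-fold). No brush border gene was lower in F/F by 2-fold or more, in tumour (0.506% of tested genes) or in normal colon (0.904%). These comparisons use the same arrays as those of tumour and normal colon.

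The genotype difference varied between the tissues for some genes. Dpep1 differed by 2.46 in tumour and 0.03 in normal colon. Sis differed by 0.08 in tumour and 2.10 in normal colon. Both Sis tumour values, 2.94 in F/F and 2.87 in wild-type, lie below the tested level, so its difference in tumour cannot be judged. Among tested genes 0.0415% had a difference as high as that of Dpep1 in tumour. Of 13 tested colonocyte markers, 7 were also higher by 2-fold or more in F/F than in wild-type tumour, and 0 were lower. Aqp8 was among them, at 2.46 in tumour and 0.17 in normal colon. In normal colon, the Sis difference sets the 1 array that admitted the gene to the test against a wild-type value below the tested level. The size of that difference is therefore uncertain. Alpi was higher in F/F in both, by 0.88 in tumour and 1.37 in normal colon. Its tumour values were 4.69 in F/F, at the tested level, and 3.81 in wild-type, below it, so the size of that difference is uncertain. Vil1 was higher by 0.51 in tumour and 0.25 in normal colon, and Dpp4 by 0.72 and 0.11. Anpep went opposite ways, at -0.12 in tumour and 0.75 in normal colon. The 2-fold counts were 2 genes in tumour, where 1.7% of tested genes were higher in F/F by that much, and 3 in normal colon, where the share was 0.713%, or 2 without Sis. Tmigd1 in normal colon sits at the 2-fold line and was below it after quantile normalisation (0.96).

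**Figure D4:**
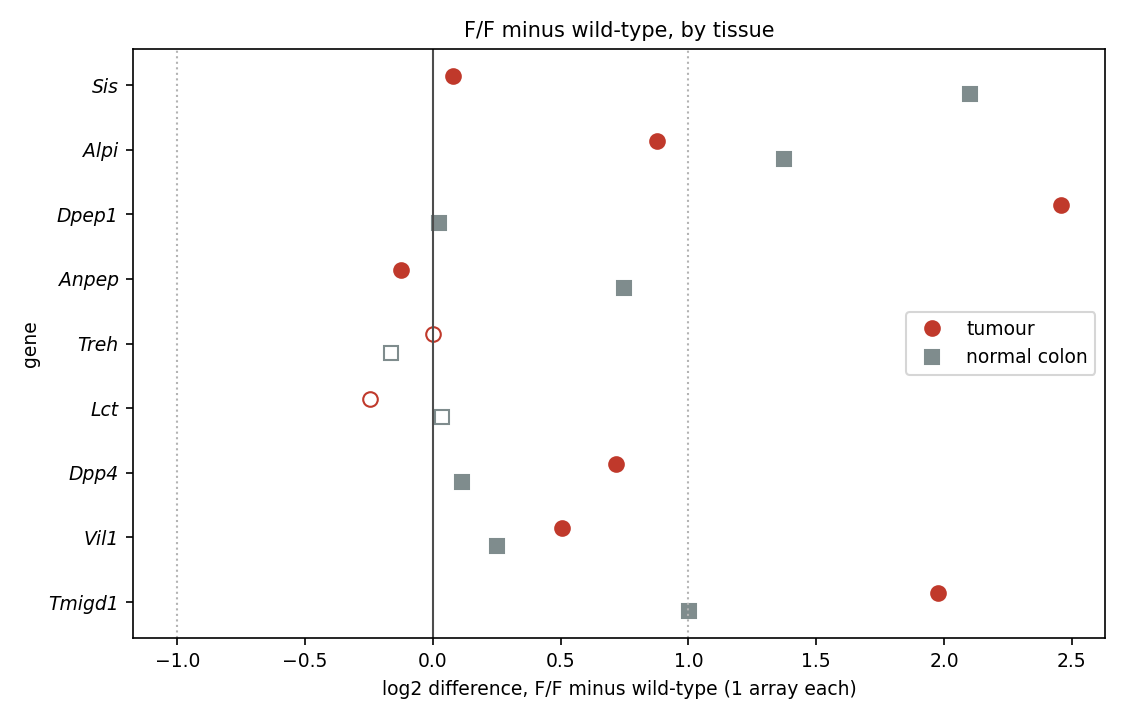
Log2 difference of F/F minus wild-type (horizontal axis) for each brush border gene (vertical axis), with circles for tumour and squares for normal colon, 1 array per genotype; open symbols are genes below the tested level and dotted lines mark a 2-fold difference. Dpep1 is at 2.46 in tumour and 0.03 in normal colon, and Sis at 0.08 in tumour and 2.10 in normal colon. Both Sis tumour values lie below the tested level.

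Over both tissues the fitted F/F minus wild-type difference was 1.49 for Tmigd1 (SE 0.26, limma adjusted p = 0.523), 1.24 for Dpep1 (SE 0.59, limma adjusted p = 0.657), 1.13 for Alpi (SE 0.17, limma adjusted p = 0.512) and 1.09 for Sis (SE 0.55, limma adjusted p = 0.662). Vil1 (0.38), Dpp4 (0.42) and Anpep (0.31) had smaller values, and no brush border gene passed. In this term limma called 0 of the 12060 genes in either direction (0%), while 8.22% had an unadjusted p under 0.05, among them Alpi, Vil1 and Tmigd1. If the tissues of a genotype came from the same mice, this term leaves out how mice differ.

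The tissue difference itself was unequal between genotypes for Dpep1. Dpep1 fell less in F/F than in wild-type mice by 2.43 on the log2 scale, and 0.174% of tested genes had a value as high. The colonocyte markers Aqp8 (2.29), Slc26a3 (2.01) and Car4 (1.99) had gaps of like size, while Slc51a went the other way (-1.73). Such a gap is therefore not particular to Dpep1. For Sis, 3 of the 4 values lie below the tested level, and the size of its gap is not given. A gap of 2-fold or more in either direction was present in 4.21% of tested genes, Dpep1 among them. With 1 array per group this gap is the model's only residual and has no test. Colonocyte markers were also higher in F/F than in wild-type tumour, by a median of 1.12, and proximal markers higher in F/F than in wild-type normal colon, by a median of 0.80. B cell markers were higher in F/F than in wild-type tumour by a median of 2.05. Distal markers differed by a median of -0.91 between F/F and wild-type normal colon. As the place of each piece is not labelled, position and genotype cannot be told apart in normal colon. The part of these cells and of position in the differences of Dpep1, Tmigd1, Sis and Alpi was not tested.

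Alpi, Dpep1, Vil1 and Tmigd1 ordered the arrays alike. The F/F array was the higher of the normal pieces and of the tumours, and both normal pieces stood above both tumours. For Dpep1 in normal colon the neighbouring values lay within 0.1 of each other. Sis had the same order, but 3 of its 4 values lie below the tested level. Its highest value is on the array that admitted it to the test, so its order is not read as a result. This order was shared by 15.7% of all tested genes and by 79.5% of the 992 genes that fell in tumour, so it is common to most genes that fell and not particular to the brush border.

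To find genes of like pattern, each gene's mean over the 4 arrays was subtracted and the Euclidean distance over the 4 arrays was taken, on the log2 scale. Closest to the median pattern of the tested brush border genes were B4galnt1 (distance 0.17), a ganglioside synthase, Cd36 (0.26), a fatty acid transporter, Lrat (0.32), which esterifies retinol, Nqo1 (0.32), a quinone reductase, and Akr1c19 (0.33). Sis enters that median, and Akr1c19, like Sis, reached the tested level on the F/F normal array alone. Tmigd1 was nearest to Aldh1a1 (0.23), a retinal dehydrogenase, and Fabp2 (0.55). Alpi was nearest to Sptssb (0.63), a subunit of the serine palmitoyltransferase complex, and the bile acid transporter Slc10a2 (0.63). The nearest genes of Sis are not given, since 3 of its 4 values lie below the tested level. Dpep1 lay closest to 1810065E05Rik (0.54) and the butyrophilin-like Btnl1 (0.61). Vil1 was nearest to Ano10 (0.03) and Sepsecs (0.04), Dpp4 to Ncam1 (0.04) and Tpcn1 (0.05), and Anpep to Rhobtb3 (0.06) and Mir3473d (0.07). Among brush border genes, Dpp4 and Vil1 (0.45) and Alpi and Tmigd1 (0.82) were the closest pairs, and Anpep and Tmigd1 (4.33) the farthest. These distances rest on 4 arrays and describe them only.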

How the data were processed

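The authors deposited 1 log2 signal per probe set and array. The submitters' processing notes name RMA and oligo, without versions. RMA equalises the distribution of probe intensities across arrays and gives no detection call. Precision is limited by how few arrays there are. Of 41345 probe sets, 23521 were annotated to exactly 1 gene, and symbols were updated through RefSeq (GRCm38.p6). Each gene was represented by its probe set with the highest mean, and tested if its highest value reached log2 4.67, the median of all gene means (12060 of 22180 genes).

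A model of tissue and genotype as additive terms was fitted over the 4 arrays with limma 3.58.1 in R 4.3.3 (eBayes with a trend, Benjamini-Hochberg over all tested genes at 0.05), leaving 1 residual degree of freedom. Its error is the tissue by genotype term, so p-values do not measure the spread between animals. The fit was tested on simulated data. Differences of 2 arrays have no test and were counted at log2 1 (2-fold). Alternatives were 3 other scalings, 2 other filters, the mean of probe sets, no trend and no genotype term. Named genes were taken from all 9 members, Slc11a2, Apc and the 4 of each context list with the largest fitted difference. To these were added the nearest genes by pattern (not those of Sis), transcription factors whose motifs were searched, and phosphatase relatives of Alpi. Not every context gene that this rule picks is named. Mgam was named after its values were seen. The members, lists and tests were chosen with earlier results of these data known.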

Additional observations from a re-analysis of the deposited data

Results flagged for a closer look

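Anpep was singled out because its tissue difference had opposite signs in the genotypes, at -0.0841 in F/F and 0.79 in wild-type mice. Its genotype difference had opposite signs in the tissues as well, at -0.12 in tumour and 0.75 in normal colon. Dpp4 was singled out for the first reason, with a tumour minus normal difference of 0.0677 in F/F and -0.53 in wild-type mice. With each array centred on its median, the F/F difference of Dpp4 was -0.01, so its opposite sign rests on the scaling. Neither difference between groups was tested, since each group is 1 array.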

How the results depend on the processing

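The count of brush border genes that fell in tumour over both genotypes was 4, and it was 2 with eBayes without a trend and 2 with tissue alone, without the genotype term, where Alpi and Tmigd1 passed; it was 5 with the arrays centred on their medians, where Sis was added. Over all tested genes the share that fell moved too, at 6.09% without a trend, 5.4% with tissue alone and 12.7% with centred arrays, against 8.23%. Over all settings Alpi ranged from -3.86 to -3.75 and Tmigd1 from -3.80 to -3.72, and both passed in all 9 settings, the one reported included. The counts of genes that rose in tumour or were called for genotype stayed at 0 under each alternative run for them. The 2-fold counts lay between 3 and 4 for tumour against normal colon and between 2 and 3 for F/F against wild-type normal colon. Slc11a2 changed sign, its tumour minus normal difference of 0.10 being -0.0182 after quantile normalisation and -0.0063 after cyclic loess, far from the threshold in each case. Over all tested genes 57.3% of tumour calls were higher, against 46.4% after cyclic loess, where 10.2% of genes fell. The genotype term already pairs the tissues of each genotype, and the labels give no replicate numbers for another pairing; without any 1 array the additive model has no residual degree of freedom, and each genotype's own difference stands in its place. With 1 array per group no value has a measured error, and values under log2 4.67 limit Sis, Treh and Lct and the wild-type tumour value of Alpi and Tmigd1.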
